A study of Mus musculus with 48 samples.

Results

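The Dlk1-Dio3 locus on distal mouse chromosome 12 holds one of the largest groups of imprinted microRNAs (miRNAs). The mature miRNAs examined here are 50 named members of that group, among 1409 mature miRNA entries in 3 count tables. They were matched by name, whatever their level, and the species prefix mmu- is left out of most names below. A table lists only part of the entries, and 48, 49 and all 50 members were listed in the tables of library sets 2, 3 and 4. miR-679-5p was not listed in set 2, and miR-758-3p was listed in neither set 2 nor set 3.

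At this locus the protein-coding genes Dlk1, Rtl1 and Dio3 are expressed from the paternal chromosome. The long noncoding RNAs Meg3, Rtl1 antisense, Rian and Mirg are expressed from the maternal one, and the miRNAs are cut from such noncoding transcripts. The miRNAs are known for high levels in the embryo, placenta and brain and in mesenchymal cells, and for low levels in most differentiated blood cells. The parental origin of the reads was not measured.

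Small RNA was sequenced from C57BL/6 mice in 48 libraries of 4 kinds of sample. These were cell-free bronchoalveolar lavage fluid (14 libraries), the cells spun out of lavage (14), serum from 1 mouse per library (14) and brushed airway epithelium pooled from 1 to 3 mice (6). Untreated mice gave 3 fluid, 3 cell, 3 serum and 1 brushing library. Immunized mice, which gave 4, 4, 4 and 2, received weekly intraperitoneal injections of 50 ug ovalbumin with 100 ul alum for 3 to 4 weeks, and from 7 days after the last one 20 ul saline into the oropharynx on 3 days. Allergic mice, which gave 7, 7, 7 and 3, had the same injections and then 50 ug ovalbumin in 20 ul. Samples were taken on day 4. All untreated libraries were in set 2 and all immunized libraries in sets 3 and 4, with allergic libraries in each, so allergic libraries were compared with untreated ones in set 2 and with immunized ones in sets 3 and 4. The labels do not say whether libraries of the same number came from one mouse, so p-values measure the spread between libraries.

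The sequences below are those of the 8 members with the highest mean level over the 4 kinds of sample, then of 4 members on which the differences in serum and between kinds of sample turned, and last of 4 members with close relatives inside the group. They are RefSeq mature sequences on GRCm38.p6, 5′ to 3′, with the seed (bases 2 to 8, which pair with target mRNAs) in capitals.
mmu-miR-127-3p: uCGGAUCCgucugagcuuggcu
mmu-miR-136-5p: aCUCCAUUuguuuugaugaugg
mmu-miR-434-3p: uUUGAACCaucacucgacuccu
mmu-miR-136-3p: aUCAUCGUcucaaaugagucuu
mmu-miR-495-3p: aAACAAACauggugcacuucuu
mmu-miR-329-3p: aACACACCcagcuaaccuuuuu
mmu-miR-411-5p: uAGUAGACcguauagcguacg
mmu-miR-379-5p: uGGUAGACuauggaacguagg
mmu-miR-337-5p: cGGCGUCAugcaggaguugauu
mmu-miR-541-5p: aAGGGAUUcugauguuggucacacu
mmu-miR-382-5p: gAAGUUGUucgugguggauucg
mmu-miR-494-3p: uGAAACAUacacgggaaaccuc
mmu-miR-300-3p: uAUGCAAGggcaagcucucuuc
mmu-miR-381-3p: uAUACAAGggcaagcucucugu
mmu-miR-376a-3p: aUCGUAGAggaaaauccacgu
mmu-miR-376b-3p: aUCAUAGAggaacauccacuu

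RefSeq sequences were matched for 47 of the 50 members, from 39 hairpins, and miR-376c-3p, miR-485-5p and miR-487b-3p are given by name alone. No seed was shared between any of the 47. Outside the group, miR-362-3p had the seed of miR-329-3p, miR-344d-3p and miR-344e-3p that of miR-410-3p, miR-379-3p that of miR-411-3p and miR-6985-3p that of miR-673-5p. The pairs miR-300-3p with miR-381-3p and miR-376a-3p with miR-376b-3p differ at few bases, so reads could be split between them and their single values are uncertain.

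All 47 lay on the plus strand of chromosome 12 (GRCm38.p6), from 109572004 at the start of miR-673-5p to 109743784 at the end of miR-410-3p, a span of 172 kb. Upstream of them lie Dlk1 (109452823 to 109463336, plus strand) and Meg3 (109541001 to 109571726, plus strand). miR-337-5p (109585818 to 109585839) comes first of the 12 members placed here. Opposite Rtl1 (109589193 to 109600330, minus strand), 8 mature miRNAs from 5 hairpins fell in exons of Rtl1 antisense. They include miR-127-3p (109592888 to 109592909), miR-434-3p (109594565 to 109594586), miR-136-5p (109595331 to 109595352) and miR-136-3p (109595366 to 109595387), and miRNAs of this stretch are known to pair fully with the Rtl1 transcript. In introns of Rian (109603940 to 109661716, plus strand) lay 2 members. Between Rian and Mirg came miR-379-5p (109709065 to 109709085), miR-411-5p (109710190 to 109710210), miR-329-3p (109713541 to 109713562), miR-494-3p (109715367 to 109715388) and miR-495-3p (109718795 to 109718816). Within Mirg (109729764 to 109749460, plus strand) lay miR-382-5p (109733781 to 109733802) and miR-541-5p (109742422 to 109742446), with 4 members in its exons and 9 in its introns. The other 24 were intergenic in the annotation.

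Summed miRNA counts per library ran from 113004.5 to 654157 in brushings, 135707 to 561803.5 in fluid, 43087 to 960796 in the cells of lavage, and 137638 to 2738223 in serum. Epithelial marker miRNAs such as the miR-200 family made up 11.7% to 16.4% of the count in brushings and 9.49% to 18.4% in fluid, against 0.0802% to 0.784% in serum. In lavage cells the hematopoietic markers made up 3.67% to 34.3% and the epithelial ones 0.317% to 3.78%. Erythroid markers, led by miR-451a, took 21.9% to 70.5% of serum and 5.53% to 50.9% of lavage cell counts. Allergic brushing library 1 stood apart with the fewest counts of its kind (113004.5) and the most erythroid count (17.1%, against 0.177% to 3.03% in the other 5 brushing libraries).

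The group was a minor part of every library and was scarcest in lavage cells. All 50 members together took a median of 0.130% of the miRNA count in serum (0.0369% to 0.231%, n = 14), 0.105% in brushings (0.0230% to 0.144%, n = 6), 0.0287% in fluid (0.00919% to 0.0838%, n = 14) and 0.00181% in lavage cells (0 to 0.0192%, n = 14). The 4 kinds of sample gave 17537, 2822, 1478 and 80 member counts in the same order, 21917 in all. Counts were seen for all 50 members in serum, 48 in brushings, 48 in fluid and 27 in lavage cells. The rarest members were miR-758-3p with 2 counts in all libraries together, miR-679-5p with 4 and miR-666-5p with 9. Where values of mixed tissues or fluids differ, fewer cells of a type and less RNA per cell cannot be told apart.

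**Figure D1:**
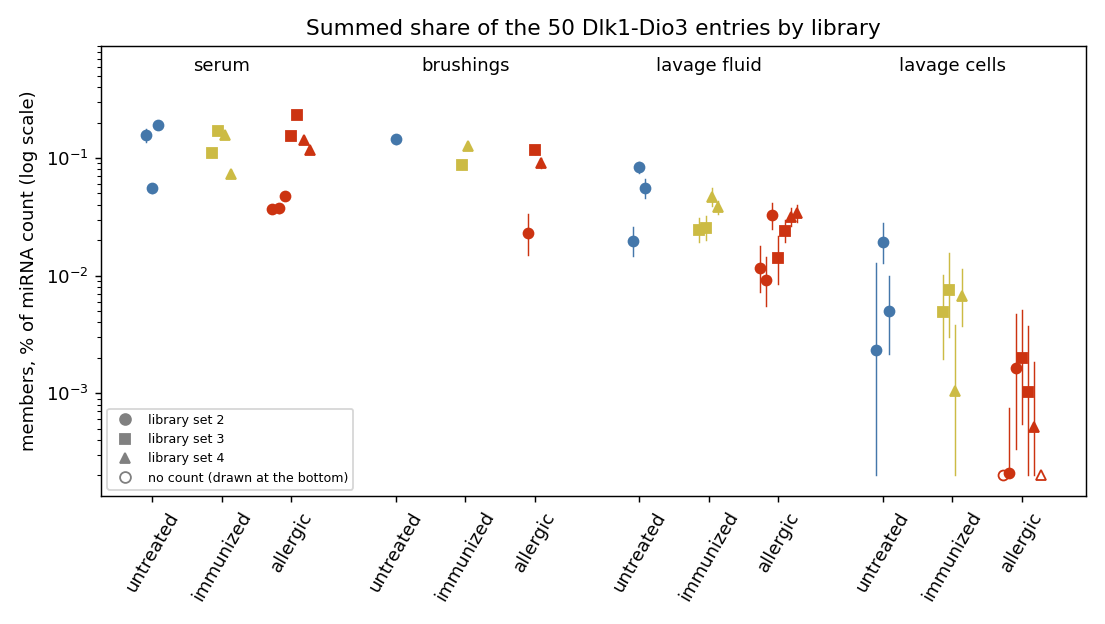
Summed share of the 50 members in each library, as a percent of the library's total miRNA count on a log axis, by kind of sample and group, with colours for groups, symbols for library sets and bars for exact 95% intervals of counting error. Serum and brushings sit highest, fluid in between and lavage cells lowest, where 2 allergic libraries had no member count and are drawn open at the bottom.

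Among untreated libraries the share was 0.0530% ± 0.0321 in fluid, 0.00886% ± 0.00908 in cells and 0.135% ± 0.0709 in serum (SD, n = 3 each), and 0.144% in the 1 brushing library. Immunized libraries had 0.0337% ± 0.0105 in fluid, 0.00506% ± 0.00289 in cells and 0.128% ± 0.0451 in serum (SD, n = 4 each). Allergic libraries had 0.0225% ± 0.0107 in fluid, 0.000768% ± 0.000804 in cells and 0.110% ± 0.0735 in serum (SD, n = 7 each). The 2 immunized brushing libraries had 0.0882% and 0.127%, and the 3 allergic ones 0.0230%, 0.118% and 0.0917%. Serum and brushings overlapped, and every lavage cell library lay below every serum and brushing library.

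The counts were spread unevenly over the members. The 8 members with the highest mean level held 55.1% of the member count in fluid, 46.4% in serum and 60.2% in brushings. mmu-miR-136-5p ranked first in fluid (14.3% of the member count) and in brushings (15.5%) and 3rd in serum (6.59%). mmu-miR-127-3p ranked second in all 3 (10.6%, 12.8% and 7.48%). mmu-miR-434-3p led in serum with 9.78% of the member count, against 8.59% in fluid and 5.32% in brushings. The widest shift in rank among these 8 was that of mmu-miR-411-5p, which was 3rd in brushings (7.12%), 7th in fluid (3.79%) and 26th in serum (1.41%). Its neighbour miR-379-5p went the same way, with 5.10%, 4.94% and 2.04%.

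**Figure D2:**
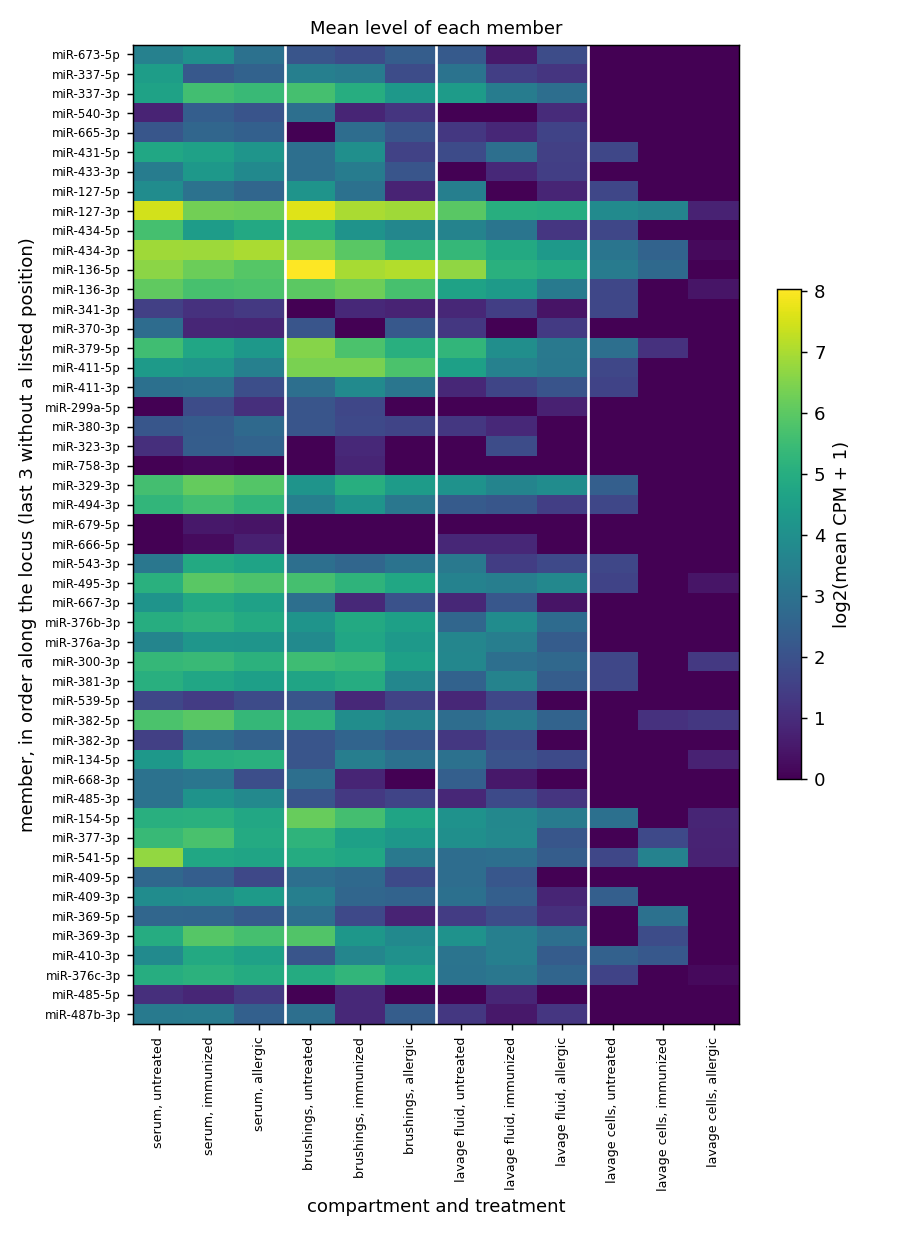
Mean level of each of the 50 members, as colour on a scale of log2(mean CPM + 1), where CPM is counts per 1000000 of a library's total miRNA count, with members in order along the locus (the last 3 without a listed position) and groups of each kind of sample as columns. miR-127-3p, miR-434-3p and miR-136-5p are among the brightest in serum, brushings and fluid, and most members are at 0 in lavage cells.

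The composition of the group in fluid stood nearer to that in brushings than to that in serum. Pooled over libraries, the member profiles of fluid and brushings differed by 13.4 percentage points (the summed absolute difference over the members, divided so that 100 means no overlap). Fluid and serum differed by 19.8 points, and serum and brushings by 29.3. Single libraries were mixed: of the 12 fluid libraries with at least 20 member counts, 7 were nearer the pooled brushings and 5 nearer the pooled serum. The 13 members of the Rtl1 antisense stretch and its upstream neighbours held a median of 44.9% of a fluid library's member count (38.4% to 61.2%, n = 12), 40.3% in serum (32.3% to 51.4%, n = 14) and 48.9% in brushings (43.4% to 57.7%, n = 6). These ranges overlapped.

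Members with both strands listed kept one strand as the major one in most cases. The 3p strand of miR-127 held 94.0% of its counts in fluid, 92.5% in serum and 96.0% in brushings. For miR-434 the same shares were 83.6%, 80.8% and 76.9%. In miR-136 the 5p strand was the major one, and the 3p strand held 26.1% in fluid (exact 95% interval 21.1 to 31.6), 41.2% in serum (39.0 to 43.4) and 29.9% in brushings (26.4 to 33.7). By library the ranges of miR-136 overlapped, at 13.6% to 45.8% in 5 fluid, 31.1% to 70.9% in 14 serum and 19.6% to 38.9% in 5 brushing libraries. For miR-409 the 3p strand held 83.8% in serum (78.9 to 87.9), 52.2% in fluid (30.6 to 73.2, from 23 counts) and 50% in brushings (29.9 to 70.1, from 26 counts). These intervals cover counting error only.

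Non-allergic libraries (untreated and immunized together, 24 in all) were compared between kinds of sample with the library set as a term, in edgeR's quasi-likelihood test over 356 entries. Only 19 of the 50 members passed the filter on low counts, mostly through serum and brushings where they were high, so the counts below are a description. Values per library are given in counts per 1000000 of the library's total (CPM), while log2 fold changes come from the fit with TMM scaling.

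Lavage fluid held less of the group than serum. miR-382-5p had 0 to 13.99 CPM in the 7 non-allergic fluid libraries (median 7.20) and 21.3, 79.9 and 59.1 CPM in untreated and 57.9, 62.2, 70.5 and 54.7 CPM in immunized serum. Every serum library stood above every fluid library. Its log2 fold change was -3.57 (SE 0.42, edgeR adjusted p = 1.98e-08), and that of miR-494-3p was -3.87 (SE 0.51, adjusted p = 1.46e-07). All 19 tested members were lower in fluid, where 41.6% of all entries tested were lower. The members' median was -2.50 against -0.04 for all entries. miR-127-3p was lower by less (-2.22, SE 0.40, adjusted p = 1.86e-05). Scaling to total counts moved the median of all entries to 0.70 and that of the members to -1.76, and the calls over all entries from 126 higher and 148 lower to 163 and 105.

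Against lavage cells the direction was the opposite. Fluid held more of 14 of the 19 members, with 37.9% of all entries higher. For miR-136-5p the non-allergic fluid libraries had 48.2, 188 and 71.1 CPM in untreated and 19.5, 38.5, 36.0 and 39.2 CPM in immunized mice. Lavage cells had 0, 27.5 and 0 CPM in untreated and 7.01, 10.7, 0 and 4.83 CPM in immunized mice. The ranges overlapped only through untreated cell library 2. The pooled ratio was 9.16 (exact 95% interval 4.34 to 23.2, from 150 and 7 counts), with a log2 fold change of 2.64 (SE 0.64, adjusted p = 0.000775). That ratio was 18.2 without untreated cell library 2, which held 4 of the 7 counts, and 5.66 without untreated fluid library 2. miR-337-3p and miR-376b-3p had no count in any of the 14 cell libraries. With the cells' floor set at 3 counts for the 7 non-allergic libraries together, they were 5.13-fold and 3.28-fold higher in fluid (3.26-fold for miR-337-3p without untreated fluid library 2). Folds from a floor leave out the counting error of the other side, so they are not lower limits. miR-127-3p, at 104 and 12 counts, was 3.70-fold higher (2.03 to 7.40; log2 fold change 1.47, SE 0.57, adjusted p = 0.0247). The count of 14 fell to 7 without immunized cell library 3 and to 9 without immunized cell library 4. With the untreated libraries alone, it was 2.

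Serum held more than lavage cells of all 19 members tested, with 39.9% of all entries lower in cells. miR-434-3p had 124, 62.9 and 164 CPM in untreated and 119, 138, 126 and 73.6 CPM in immunized serum. In lavage cells it had 1 count in untreated library 1 (23.2 CPM), 4 counts in immunized library 4 (19.3 CPM) and none in the other 5 non-allergic libraries. The groups did not overlap, and its log2 fold change was -5.09 (SE 0.54, adjusted p = 4.58e-09). By the floor of 3 counts, miR-337-3p was 15.8-fold lower in cells and miR-376b-3p 13.1-fold. The members' median was -5.09 against -0.28 for all entries, or -4.50 against 0.35 after scaling to total counts, which also moved the calls over all entries from 100 higher and 142 lower to 131 and 102. Against brushings all 19 were lower in cells too (36% of all entries lower), among them miR-411-5p with 1 count against 128. Its ratio of cells to brushings was 0.0120 (0.000301 to 0.0680). Without untreated cell library 2, which held the 1 count, it was 23.7-fold lower in cells by the floor.

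**Figure D3:**
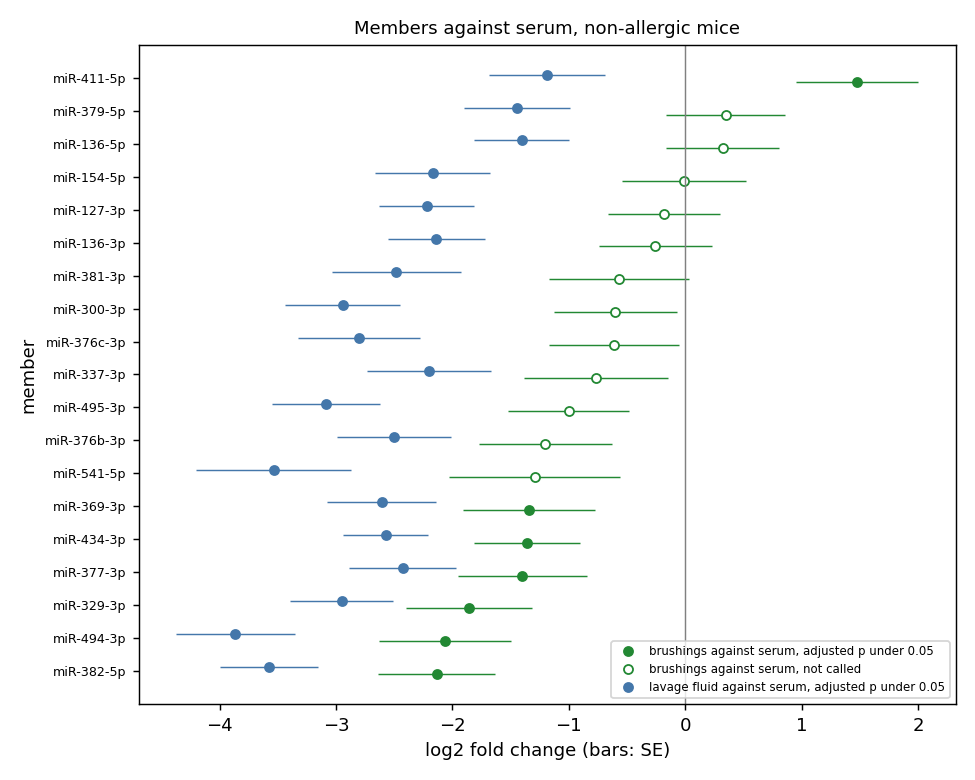
Log2 fold changes of the 19 tested members for lavage fluid against serum (blue) and brushings against serum (green) in non-allergic libraries, with bars for the standard error from edgeR and filled symbols for adjusted p under 0.05. All 19 are called below 0 in fluid, while in brushings 6 are called below 0 and miR-411-5p above it.

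Between airway brushings and serum 7 of the 19 members were called. miR-411-5p was higher in brushings, which is 1 of 19 with 28.1% of all entries higher. miR-382-5p, miR-494-3p, miR-329-3p, miR-377-3p, miR-434-3p and miR-369-3p were lower, which is 6 of 19 with 36% of all entries lower. That count is near the share of all entries and does not set the members apart. miR-411-5p had 83.4, 70.5 and 97.8 CPM in the 3 non-allergic brushing libraries. In serum it had 0, 8.98 and 50.0 CPM in untreated and 15.5, 15.8, 35.1 and 3.15 CPM in immunized mice, so every brushing library stood above every serum library. The pooled ratio was 3.76 (2.95 to 4.77), or 5.85 without immunized serum library 3, which held 96 of the 157 serum counts, and the log2 fold change 1.48 (SE 0.53, adjusted p = 0.0158).

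miR-382-5p showed the reverse, with 36.7, 7.23 and 21.4 CPM in brushings. It overlapped with serum, where untreated library 2 had 21.3 CPM and the other 6 had 54.7 or more. Its log2 fold change was -2.14 (SE 0.50, adjusted p = 0.000522), and that of miR-494-3p was -2.06 (SE 0.57, adjusted p = 0.00238). miR-127-3p, at 197, 99.4 and 159 CPM in brushings and 26.3 to 239 CPM in serum, did not pass (-0.19, SE 0.48, adjusted p = 0.747), and its ratio without scaling was above 1, at 1.38. Scaling to total counts moved the median of all entries from -0.18 to 0.36 and that of the members from -0.77 to -0.11, left 3 members called, and moved the calls over all entries from 100 higher and 128 lower to 139 and 85. The call of miR-411-5p was lost without immunized brushing library 1 (adjusted p = 0.0733), that of miR-329-3p without untreated brushing library 1 (0.0538) and that of miR-434-3p without immunized brushing library 1 (0.0769) or 2 (0.120). miR-377-3p was lost without any one of the 3 brushing libraries or immunized serum libraries 2 or 3 (up to 0.293). miR-369-3p was lost without immunized brushing libraries 1 or 2, immunized serum libraries 2 or 3, immunized fluid library 3 or untreated cell library 2 (up to 0.475). With the untreated libraries alone no member passed.

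Fluid held less than brushings of 9 of the 19 members, with 5.62% of all entries lower. miR-411-5p had 8.04, 28.3 and 31.1 CPM in untreated and 9.74, 3.50, 14.4 and 14.2 CPM in immunized fluid, all below the brushings. Its log2 fold change was -2.67 (SE 0.57, adjusted p = 0.00291), followed by miR-300-3p (-2.34) and miR-376c-3p (-2.19). miR-127-3p was lower by 2.04 on the same scale (log2 fold change -2.04, SE 0.48, adjusted p = 0.0056), and its fluid range, 21.0 to 111 CPM, reached above the lowest brushing library. Mesenchymal and muscle marker miRNAs (9 entries) took 3.26% to 11.1% of the count in these 3 brushing libraries and 0.779% to 3.63% in the 7 fluid libraries, and their part in the difference was not tested. Without immunized brushing library 1 the count was 4, and without library 2 it was 1, at miR-411-5p. The immunized libraries alone gave 1 and the untreated ones alone 0.

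In serum, the allergic libraries of set 2 had less of the group than the untreated ones, while sets 3 and 4 showed no call. The summed share was 0.156%, 0.0553% and 0.192% in untreated serum and 0.0369%, 0.0373% and 0.0475% in the allergic serum of set 2. The 2 groups did not overlap. In sets 3 and 4 immunized serum had 0.110%, 0.172%, 0.157% and 0.0730%, and allergic serum 0.155%, 0.231%, 0.142% and 0.117%, which overlapped. On the log2 scale (after adding 0.001%) the mean difference was -1.53 in set 2, 0.46 in set 3 and 0.26 in set 4.

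The 3 members called were all lower in allergic serum of set 2, among 32 members tested of 409 entries, of which 5.38% were lower. miR-382-5p had 79.9, 21.3 and 59.1 CPM in untreated and 10.7, 8.56 and 15.1 CPM in allergic serum (log2 fold change -1.59, SE 0.45, edgeR adjusted p = 0.0292). miR-541-5p had 218, 14.6 and 79.6 CPM against 8.40, 10.5 and 10.1 CPM (-2.60, SE 0.74, adjusted p = 0.0308). Both sets of values were apart, though untreated library 2 came close for miR-541-5p. miR-337-5p had 29.1, 6.74 and 27.3 CPM against 0.467, 1.32 and 3.35 CPM, from 4, 6 and 12 counts against 1, 2 and 4 (-3.07, SE 0.89, adjusted p = 0.0335). It was apart too, at few counts. Of the 32 tested, 31 had a log2 fold change below 0, with a median of -1.09 against 0.03 for all entries, and 12 had an unadjusted p under 0.05. Members share 1 locus and were measured in the same libraries, so they are not replicates of each other. With 32 tested, 3 calls are too few to set apart from the 5.38%.

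**Figure D4:**
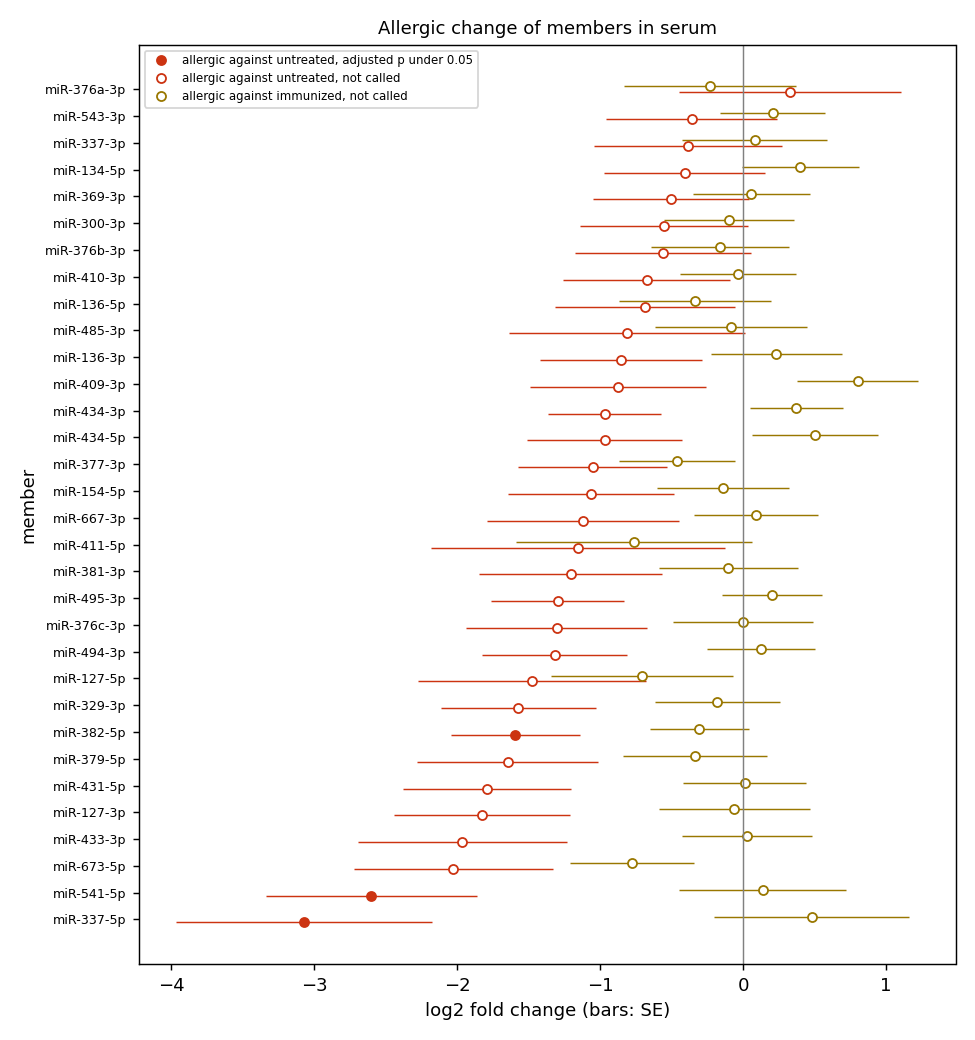
Log2 fold changes of the 32 tested members in serum, for allergic against untreated (red) and allergic against immunized libraries (ochre), with bars for the standard error from edgeR and filled symbols for adjusted p under 0.05. Against untreated serum 31 members lie below 0 and 3 are called, and against immunized serum the members lie on both sides of 0 with none called.

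The more abundant members went the same way in set 2 without passing. miR-127-3p had 225, 74.1 and 239 CPM in untreated and 30.8, 29.0 and 41.9 CPM in allergic serum, with no overlap (log2 fold change -1.83, SE 0.62, adjusted p = 0.0720). miR-434-3p had 124, 62.9 and 164 CPM against 28.9, 48.7 and 52.0 CPM. miR-495-3p had 29.1, 20.2 and 50.0 CPM against 8.40, 9.22 and 12.6 CPM. miR-136-5p overlapped, with 65.4, 46.0 and 186 CPM against 46.7, 32.9 and 46.9 CPM. In sets 3 and 4 miR-382-5p had 57.9, 62.2, 70.5 and 54.7 CPM in immunized and 65.2, 71.9, 66.4 and 41.2 CPM in allergic serum, which overlapped.

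None of the 32 members passed between allergic and immunized serum in edgeR (0% of all 409 entries), none had an unadjusted p under 0.05, and DESeq2 called 0. Their median was -0.02 against -0.01 for all entries. The lowest p values belonged to miR-409-3p (0.80, SE 0.42), miR-673-5p (-0.77, SE 0.43) and miR-377-3p (-0.46, SE 0.40), each with adjusted p = 0.997. The difference between the set 2 change and that of sets 3 and 4, a contrast chosen after seeing the data, gave 0 of 32 in edgeR (3.18% of all entries), with 11 at an unadjusted p under 0.05, and DESeq2 called 2. For miR-337-5p that difference was -3.55 (SE 1.13, adjusted p = 0.109) and for miR-541-5p -2.74 (SE 0.93, adjusted p = 0.134). It was 4 without immunized serum library 3.

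Depth and the multiciliated markers differed between untreated and allergic serum of set 2 without overlap, while every other marker list overlapped. Untreated libraries there had 137638 to 890460.5 counts and allergic ones 1193226 to 2143704, with no overlap, and erythroid markers took 51.3% to 70.5% and 55.7% to 66.7%. Multiciliated markers (5 entries) took 0.0061% to 0.0254% in untreated and 0.0025% to 0.0044% in allergic serum, with no overlap. Mesenchymal and muscle markers took 0.490% to 1.84% and 0.346% to 0.817%, and liver markers (3 entries) 0.177% to 0.720% and 0.112% to 0.282%, both overlapping. Their part in the member values was not tested. With the erythroid entries left out, the share was 0.354%, 0.187% and 0.395% against 0.111%, 0.0911% and 0.107%, still without overlap. Allergic serum of set 2 was also below allergic serum of sets 3 and 4 (0.182% to 0.359% by that measure), though the group label was the same, so that library set and its mice cannot be told apart. Scaling to total counts moved the median of all entries to -0.41 and that of the members to -1.63, called 5 members, and moved the calls over all entries from 16 higher and 22 lower to 0 and 20. DESeq2 called 6 members. The 3 calls depended on single libraries: without allergic serum library 1 or 2 none was left, without allergic library 3 there was 1, and without immunized library 3 or 4 there were 5. miR-337-5p was also lost without untreated library 1 (adjusted p = 0.0593) or 3 (0.135), and miR-541-5p without untreated library 1 (0.124).

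In lavage fluid no member passed in either comparison, with only 4 of the 50 above the filter. miR-136-5p had 48.2, 188 and 71.1 CPM in untreated fluid and 27.9, 24.2 and 32.6 CPM in allergic fluid of set 2. The 2 groups did not overlap, but the spread among untreated libraries was wide (log2 fold change -1.53, SE 0.67, edgeR adjusted p = 0.103). miR-379-5p had 4.02, 51.4 and 57.7 CPM against 5.58, 4.84 and 5.43 CPM (-2.43, SE 1.19, adjusted p = 0.142). It overlapped through untreated library 1. miR-434-3p had 20.1, 54.0 and 44.4 CPM against 16.7, 4.84 and 27.1 CPM (-0.98, SE 0.72, adjusted p = 0.331). miR-127-3p had 28.1, 111 and 48.8 CPM against 16.7, 14.5 and 70.5 CPM, and also overlapped (-0.59, SE 0.65, adjusted p = 0.530).

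Of all 294 entries 28.2% changed between allergic and untreated fluid. Of the members 0 of 4 did, and 4 are too few to set apart from that share. Of these 4, 1 had an unadjusted p under 0.05, and DESeq2 called 0. Under total count scaling the median of all entries moved from 0.07 to -0.26, 1 member was lower, and the calls over all entries went from 48 higher and 35 lower to 35 and 63. Without untreated fluid library 1 there were 2. Against immunized mice 0 of 4 passed (5.44% of all entries), with 0 at an unadjusted p under 0.05 and 0 in DESeq2. miR-434-3p gave -0.31 (SE 0.57), miR-136-5p 0.10 (SE 0.56) and miR-127-3p -0.07 (SE 0.58), each with an adjusted p of 0.820 or more. With total count scaling miR-136-5p was at -0.04 in place of 0.10, and the calls over all entries were 14 higher and 10 lower in place of 13 and 3. The difference between the untreated and immunized comparisons gave 0 of 4 (1.02% of all entries), with 0 at an unadjusted p under 0.05 and 0 in DESeq2.

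The summed share in fluid was 0.0197%, 0.0838% and 0.0555% in untreated and 0.0117%, 0.00919% and 0.0326% in allergic libraries of set 2, which overlapped. In set 3 immunized fluid had 0.0247% and 0.0255% and allergic fluid 0.0140% and 0.0241%. In set 4 the values were 0.0465% and 0.0381% against 0.0318% and 0.0340%. Neither set overlapped, at 2 libraries per group, though in set 3 the nearest values were close. The mean log2 difference was -1.50 in set 2, -0.43 in set 3 and -0.35 in set 4. Several marker lists moved with it. In set 2 mesenchymal and muscle markers took 1.69% to 3.63% of the count in untreated and 0.520% to 1.03% in allergic fluid. In set 3 the immunized libraries had 0.779% to 1.64% and the allergic ones 0.576% to 1.01%, and in set 4 the ranges were 1.05% to 2.18% and 0.515% to 0.602%. Endothelial markers (2 entries) were lower in allergic fluid without overlap in each set, at 0.188% to 0.738% against 0.0680% to 0.135% in set 2, 0.101% to 0.243% against 0.0744% to 0.0790% in set 3, and 0.175% to 0.256% against 0.119% to 0.162% in set 4. Hematopoietic markers were higher without overlap in each set, at 0.385% to 0.577% against 2.09% to 3.51%, then 0.439% to 0.809% against 0.932% to 1.63%, and 0.562% to 0.628% against 0.933% to 2.65%. The part of any of these lists in the fluid values was not tested.

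Allergic lavage cells held fewer of the already few member counts than the other groups. Untreated libraries had 1, 28 and 8 member counts, immunized ones 7, 7, 2 and 14, and allergic ones 0, 2, 3, 4, 2, 2 and 0. As shares these were 0.00232%, 0.0192% and 0.00503%, then 0.00491%, 0.00751%, 0.00105% and 0.00676%, and 0 to 0.00200% with a median of 0.000511% in the allergic libraries. In each library set the allergic libraries lay below the others, though the exact 95% intervals of the nearest libraries overlapped in each set. In set 2 these were untreated library 1 (5.88e-05% to 0.0129%, from 1 count) and allergic library 3 (0.000335% to 0.00475%, from 3 counts). In set 2, 37 untreated counts stood against 5 allergic ones, a 31.2-fold higher share (exact 95% interval 12.2 to 101.7). Sets 3 and 4 gave 14 immunized counts against 6, a ratio of 3.90 (1.41 to 12.4), and 16 against 2, a ratio of 12.3 (2.90 to 110.7). Of the 37 counts 28 came from untreated library 2, and of the 16 counts 14 came from immunized library 4. The ratios of sets 2 and 4 thus lean on single libraries, and all these intervals cover counting error only. A count of 0 allows a share of up to 0.00115% in allergic library 1 and 0.00166% in library 7, the upper ends of the exact 95% intervals.

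No member passed the filter in lavage cells, so none was tested there, while 39.5% of 258 entries changed between allergic and untreated cells and 38.4% between allergic and immunized (0.775% for the difference between those changes). miR-127-3p had 0, 4 and 2 counts in untreated, 2, 2, 0 and 2 in immunized, and 1 count in 1 of the 7 allergic libraries. Pooled over the sets its ratio was 30.3 (4.48 to 1293), which became 18.5 without allergic library 2. Without allergic library 4, which held the 1 count, it was 9.27 from a floor of 3 counts. Folds from the floor leave out the counting error of the non-allergic counts, so they are not lower limits. miR-136-5p had 7 counts in the non-allergic libraries, 4 of them in untreated library 2, and none in the 7 allergic ones. By the floor it was 5.88-fold lower with allergy (3.60-fold without allergic library 2). Without untreated library 2 its 3 remaining counts were at the floor and gave no fold. miR-434-3p had 5 counts against 1, a ratio of 12.6 (1.41 to 596). That ratio became 3.19 (0.0407 to 251) without immunized library 4 and, by the floor, 2.57 without allergic library 2. Several marker lists moved with these values. Hematopoietic markers took 3.67% to 9.14% of the count in non-allergic and 10.8% to 34.3% in allergic cell libraries, and epithelial markers 1.63% to 3.78% and 0.317% to 1.24%. Mesenchymal and muscle markers (9 entries) took 0.0365% to 1.30% in non-allergic and 0.00766% to 0.0730% in allergic libraries, which overlapped. The 1.30% was immunized library 4, which also stood apart in endothelial markers (0.203%, against 0.0255% or less in the other 13) and held 14 member counts, while the other 6 non-allergic libraries had 0.144% or less. Their part in the member counts was not tested.

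In brushings none of 17 tested members passed between 3 allergic and 3 non-allergic libraries (2.94% of 306 entries changed), with 0 at an unadjusted p under 0.05 and 0 in DESeq2. miR-136-5p had 260 CPM in the untreated, 112 and 139 CPM in the immunized and 8.85, 299.7 and 100.1 CPM in the allergic libraries, which spanned the others. miR-434-3p had 93.4, 50.6 and 73.4 CPM against 35.4, 49.9 and 34.1 CPM. The 2 groups did not overlap, and it did not pass (log2 fold change -0.66, SE 0.40, edgeR adjusted p = 0.779). Next came miR-381-3p (-0.89, SE 0.67, adjusted p = 0.816) and miR-154-5p (-0.88, SE 0.72, adjusted p = 0.840). The median of the 17 was -0.37 against -0.06 for all entries. In allergic library 1, which stood apart in depth and erythroid count, the summed share was 0.0230% (exact 95% interval 0.0150 to 0.0337), against 0.118% and 0.0917% in the other allergic libraries.

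Whether the allergic change differed between kinds of sample was tested over the 42 libraries of fluid, cells and serum, with 16 members tested of 338 entries. These members passed the filter mostly through serum, where they were high: 32 members passed in serum alone, 4 in fluid alone and none in cells alone. The fit took 1 allergic change per kind of sample, against untreated libraries in set 2 and immunized ones in sets 3 and 4. Serum shares went opposite ways there, with a mean log2 difference of -1.53 in set 2, 0.46 in set 3 and 0.26 in set 4. The serum change in this fit is thus a mix of unlike changes. For miR-127-3p the fitted difference between fluid and cells was 3.96 on the log2 scale (SE 1.25, edgeR adjusted p = 0.0193), which made 1 of 16 members called where 15.1% of all entries were called in that direction. In cells against serum, miR-127-3p (-3.35, SE 1.22) and miR-136-5p (-4.63, SE 1.67) were called, each with adjusted p = 0.0328, which made 2 of 16 where 19.5% of all entries were lower. With 16 members tested, these counts are too small to set apart from those shares. These calls rest on the cell counts given above, 12 against 1 for miR-127-3p and 7 against 0 for miR-136-5p, so they are a description of those counts and their fitted sizes are no measure of the fold. Without untreated cell library 2, or without allergic cell library 1, 2 or 6, none of the 3 was left. The call of miR-127-3p against serum was also lost without immunized cell library 4 (adjusted p = 0.0620), immunized serum library 1 (0.0612) or allergic serum library 7 (0.0519). Between fluid and serum no member was called (0 of 16 in edgeR with 7.1% of all entries, 0 at an unadjusted p under 0.05 and 0 in DESeq2).

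Total count scaling moved the calls over all entries from 51 higher and 14 lower to 37 and 12 for fluid against cells, and from 44 and 66 to 32 and 69 for cells against serum. Beyond the 50 members the tables listed 40 other entries of the locus, mostly the other strands of the same hairpins. They held 1522 counts in all, 6.94% of the member count, with 1059 in serum, 329 in brushings, 129 in fluid and 5 in cells. Some held more than the member: an entry joining miR-299a-5p with miR-299b-5p had 283.5 counts against 27 for miR-299a-5p alone. miR-540-5p had 136 against 58 for miR-540-3p. In the allergy comparisons 4 of the 40 other entries could be tested in serum and 2 in brushings, and none was called.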

How the data were processed

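The authors deposited 3 tables of expected counts per mature miRNA, 1 per library set, made with the exceRpt pipeline per the file names and labels. They also deposited a table of RPM (reads per 1000000) values, in which a miRNA without counts carries a floor value rather than 0. The submitters' processing notes list cutadapt, DESeq2 and mm10, while no aligner was named (not given in the sources used here). Of the count values 4.40% were not whole. The planned test assumed whole counts, so values were rounded, and library totals moved by 0.00108% (median).

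Entries were filtered with edgeR's filterByExpr (minimum count 10) and scaled by TMM, and edgeR 4.0.16 in R 4.3.3 fitted quasi-likelihood models with library set as a term, Benjamini-Hochberg adjustment over all entries tested and a threshold of 0.05. Allergy fits held 14 libraries of 1 kind of sample (6 for brushings), compartment fits the 24 non-allergic libraries, and fits of the difference between kinds of sample 42. DESeq2 1.42.0, other scalings, no filter, a replicate block and leaving out each library were alternatives. Python 3.11.15, pandas 2.3.3 and SciPy 1.17.1 gave the shares and exact intervals (95%, counting error only). Count ratios within library sets and without single libraries were chosen after seeing the data. The procedure was tested on simulated data. CPM values and shares are relative to all miRNA counts of a library.

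The members and marker lists were chosen with earlier results of these data known. Values by library are given for the 8 members with the highest mean share, each kind of sample weighted equally. In each comparison up to 10 highest and 10 lowest changes past the threshold were named, or the 3 lowest p values where fewer than 3 passed. Members with both strands listed were named for their strand ratio, and others for having no counts. Replicate numbers were not used as pairs, since the labels give no pairing and in no kind of pair was every correlation over 0.1. That check cannot exclude pairing, and all correlations between same-numbered fluid and cell libraries were above 0.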

Additional observations from a re-analysis of the deposited data

Results flagged for a closer look

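The summed share and the 8 highest members were checked within groups of 4 to 10 libraries for 1 library far from the rest. Of 46 such checks, 10 found one. Chance gives about 1 in 20 for continuous values in unrelated checks, while these checks share libraries. That rate also does not apply to the 6 lavage cell checks below, where all other libraries were at 0. In lavage fluid, immunized library 3 had 57.6 CPM of miR-127-3p (the next 24.9), immunized library 1 had 19.5 CPM of miR-136-5p (the next 36.0) and allergic library 6 had 26.7 CPM of miR-136-3p (the next 11.0). In serum, allergic library 5 had 217.7 CPM of miR-127-3p, with the next at 94.4. In lavage cells single libraries had counts while the rest of their group had none. Immunized library 4 had 19.3 CPM of miR-434-3p and 4.83 CPM of miR-379-5p. Allergic library 4 had 5.0005 CPM of miR-127-3p, allergic library 2 had 1.04 CPM of miR-434-3p, and allergic library 6 had 2.55 CPM each of miR-136-3p and miR-495-3p.

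In 3 cases the difference of allergic change between kinds of sample was called in edgeR, for members that had passed the filter through fluid and serum. For miR-127-3p it was 3.96 on the log2 scale in fluid against cells (adjusted p = 0.0193) and -3.35 in cells against serum (adjusted p = 0.0328). For miR-136-5p it was -4.63 in cells against serum (adjusted p = 0.0328). The allergic cell libraries had 1 count of miR-127-3p and none of miR-136-5p. The calls were 1 and 2 of 16 members, where 15.1% and 19.5% of all entries were called in the same directions. None was left without untreated cell library 2 or without allergic cell library 1, 2 or 6.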

How the results depend on the processing

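Counts of called members under other settings are given here where they moved by more than 1.5 times. Scaling to total counts gave 1 for allergic against untreated fluid, 5 for allergic against untreated serum and 3 for brushings against serum. Without a filter on low counts there were 1 in allergic against untreated fluid, 1 in allergic against untreated cells, 1 in the serum difference of differences, 38 in fluid against serum, 41 in cells against serum, 12 in brushings against serum and 2 in the difference between fluid and cells. DESeq2 called 6 in allergic against untreated serum and 2 in the serum difference of differences, and its size factors in edgeR gave 1 for the difference between cells and serum. Settings chosen after seeing the data were untreated libraries alone, with 2 for fluid against cells, 0 for fluid against brushings, 0 for brushings against serum and 11 for cells against brushings, and immunized libraries alone, with 1 for fluid against brushings. Adding 0.01% before the log put the mean difference in the share of lavage cells at -0.543.

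Leaving out each library gave 0 to 2 called members for allergic against untreated fluid, 0 to 5 for allergic against untreated serum, 0 to 4 for the serum difference of differences and 0 for allergic against immunized in fluid and in serum, for lavage cells and for brushings. The ranges were 18 to 22 for fluid against serum, 7 to 17 for fluid against cells, 1 to 10 for fluid against brushings, 19 to 23 for cells against serum, 5 to 8 for brushings against serum and 18 to 21 for cells against brushings. For the differences of allergic change they were 0 to 2 between fluid and cells, 0 between fluid and serum and 0 to 2 between cells and serum. The mean log2 difference of the summed share ran from -1.53 to -0.0260 for brushings, from -0.450 to -0.0848 for serum, from -2.17 to -1.53 for cells and from -0.953 to -0.614 for fluid.

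With the replicate number as a block, the counts of called members were 0 in fluid and cells, 3 in allergic against untreated serum, 0 in allergic against immunized serum, 18 in fluid against serum, 14 in fluid against cells and 19 in cells against serum. miR-382-5p in allergic against untreated serum was -1.62 with an adjusted p of 0.0534 under the block. No kind of pair had every correlation over 0.1, which cannot exclude pairing. Immunized groups held 2 libraries per set, whose deviations mirror each other. Libraries 1 and 2 therefore gave the same value, as did libraries 3 and 4. The correlations of the deviations of same-numbered libraries ran from 0.0713 to 0.419 for fluid and cells (over 0.1 in 5 of 7 pairs), from -0.219 to 0.202 for fluid and serum (2 of 7), from -0.257 to 0.0307 for cells and serum (0 of 7). For untreated and allergic libraries they ran from -0.0127 to 0.2202 in fluid (2 of 3), from -0.0714 to 0.297 in cells (2 of 3) and from -0.508 to 0.175 in serum (1 of 3). No paired analysis was possible for brushings because their groups share too few numbers.

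Signs turned in values that were not called, with 1 exception given last. For allergic against immunized fluid, miR-127-3p was 1.56 under the block and ran from -0.333 to 0.347 with a library left out, miR-136-5p was -0.0394 under total count scaling, -5.93 under the block and from -0.518 to 0.368 with a library left out, and miR-434-3p ran from -0.669 to 0.0578 with a library left out. Under the block the fluid difference of differences was 4.57 for miR-136-5p and 6.44 for miR-434-3p, and allergic against immunized serum was 0.48 for miR-377-3p and 0.55 for miR-673-5p. With untreated libraries alone, the called value of miR-369-3p in brushings against serum was 0.10. The cause of these moves was not tested. In lavage cells every member value rests on 0 to 4 counts, and 31 of 50 members could not be tested between kinds of sample.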

Other observations

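The deposited RPM table gives another picture of the members in lavage cells, because a miRNA without counts carries a floor value there (0.160 to 16.6 RPM, depending on the library). The members' median share of RPM in lavage cells was 0.0215%, 11.9 times the 0.00181% from the count tables. Of that RPM a median of 89.8% came from members without a single count, and a median of 47.5 of the 50 members had none. In fluid the RPM share was 1.38 times the count share, in brushings 1.07 and in serum 1.02. The log2 difference of the allergic lavage cell share was -1.78, -0.86 and -0.76 in sets 2, 3 and 4 on the RPM values, and -2.33, -1.52 and -1.70 from the counts. The sizes are not compared, since those from the counts include libraries at 0 and depend on the 0.001% added.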
